A study of Saccharomyces cerevisiae with 8 samples.

Results

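The cyclin genes CLN1, CLN2, CLN3, CLB1, CLB2, CLB3, CLB4, CLB5 and CLB6 and the inhibitor gene SIC1 were followed across 8 two-colour Agilent expression arrays of budding yeast, Saccharomyces cerevisiae. The 10 genes were chosen by name and matched by gene symbol to the systematic names on the array. All 10 were among the 6256 genes on the array, each with 1 probe in 2 spots, and all 10 were among the 6126 genes that passed the signal filter.

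The study asked how abnormal chromosome numbers change transcript levels. Total RNA of the 7 aneuploid strains, which are A2 and A3, A9 and A10, and A13, A14 and A15, was labelled with Cy5 and hybridised against 1 Cy3-labelled wild-type RNA, WT2. On the control array, WT1, also wild type, took the Cy5 channel against the same WT2. All cells were in mid-log growth. The labels state neither which chromosomes the strains carry in excess nor how the strains arose, whether A2 and A3 are related, the ploidy or mating type of any sample, or whether each RNA came from its own culture. The p-values cover the spread among the 7 strains on 1 array each, in which differences between strains and technical error are mixed. No spread between wild-type cultures was measured.

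Cyclins are the regulatory subunits that switch on the cyclin-dependent kinase Cdc28 at set points of the cell cycle, and their transcripts rise and fall in waves. Cln3 starts the commitment to division by acting on the repressor Whi5, and Cln1 and Cln2 carry it through. Clb5 and Clb6 then start DNA replication, Clb3 and Clb4 act in early mitosis and spindle assembly, and Clb1 and Clb2 drive mitosis. Sic1 binds and inhibits the Clb kinases in G1 until Cln kinase marks it for destruction. The values below come from RNA of whole cultures, in which a different share of cells in a cycle stage and a different transcript level per cell cannot be told apart.

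Each value is a log2 ratio of a sample over WT2, so that 1 stands for a 2-fold higher and -1 for a 2-fold lower signal, averaged over the 2 spots. The second scale used is the same ratio minus the median ratio of all tested genes on the gene's chromosome on that array. Every strain was measured on 1 array, so a value of a strain has no replicate and no test. As a guide to error within an array only, duplicate spots of the 10 genes differed by a median of 0.0564 and by at most 0.239 on the log2 scale. The 10 genes lay between -0.09 and 0.16 on the WT1 array. Of the 160 member spots, all 160 were well above background in red and all 160 in green, and 0 were saturated. The array's median red signals lay between 539 and 1532 and its median green signals between 364 and 614. Chromosome medians of at least 0.3 over WT2, called raised here, occurred in 18 of 112 pairs of strain and chromosome, at least 1 in each strain, and in 0 of the 16 chromosomes on WT1.

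**Figure D1:**
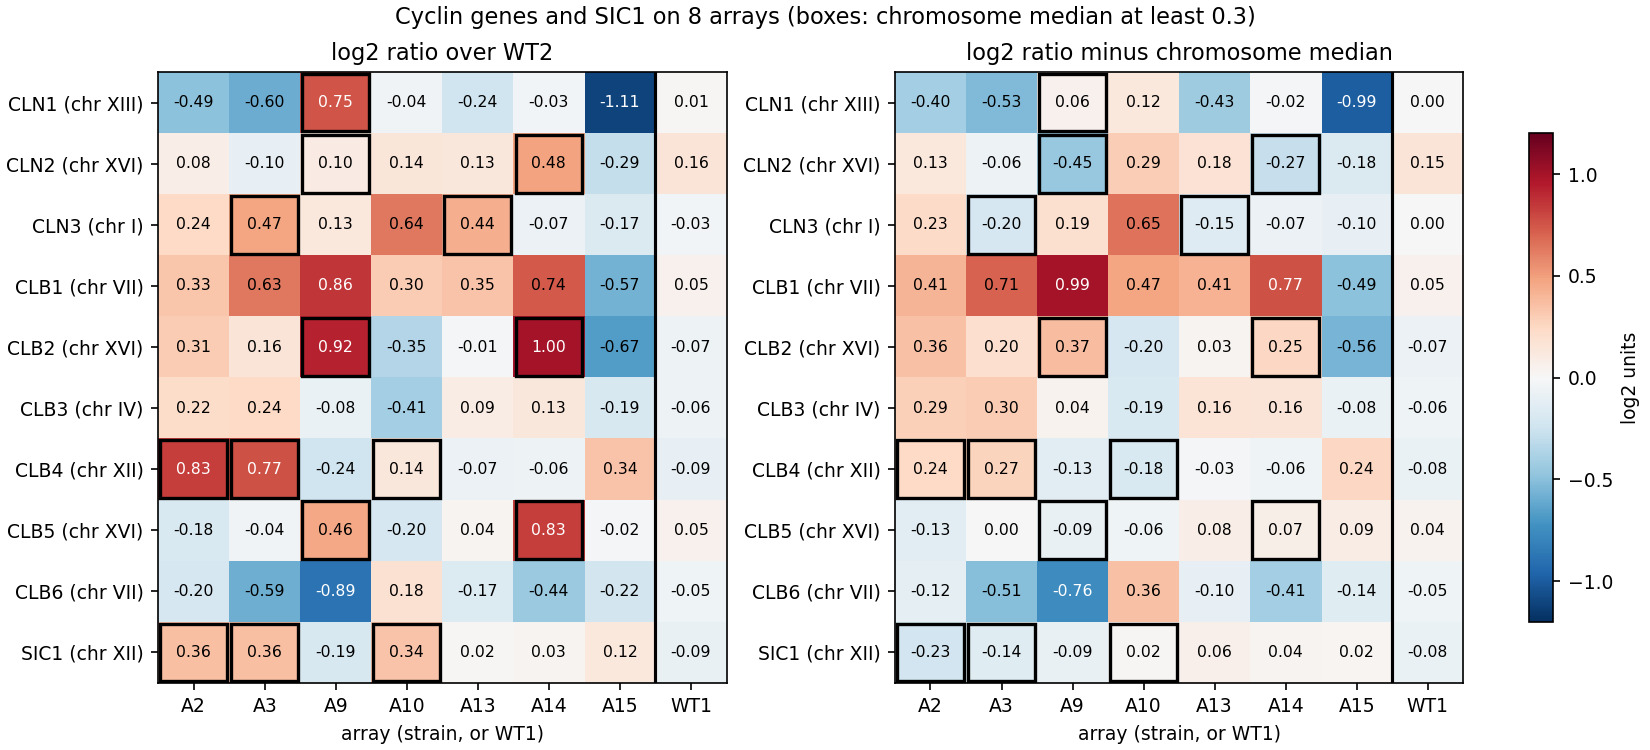
Log2 ratios over WT2 (left) and the same ratios minus the chromosome median (right) for the 10 genes (rows, with their chromosome) on the 8 arrays (columns, WT1 last), with boxes where the chromosome median was at least 0.3. CLB5 and SIC1 stay within 0.24 of 0 in the right panel, whereas CLN1 in A15 (-0.99) and CLB1 in A9 (0.99) keep their size.

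Across the 70 pairs of gene and strain, 10 were at least 1.5-fold higher than WT2, or 14.3%, beside 11.2% of the values of all tested genes. A further 5, or 7.14%, were at least 1.5-fold lower, beside 5.22% of all values. After subtraction of the chromosome medians, 4 of the 70, or 5.71%, passed the same limit upward, beside 4.62% of all values. Downward, 2 of the 70 passed it, or 2.86%, beside 4.81%. These shares were near the background, and with 10 genes nothing is read from their differences.

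The genes past 1.5-fold over WT2 differed from strain to strain. CLB4 alone was higher in A2, where 9.83% of all genes were, and CLB1 and CLB4 were higher in A3, where 10% were. CLN1 and CLB6 were lower in A3, beside 4.2% of all genes. In A9, CLN1, CLB1 and CLB2 were higher, beside 15.2% of all genes, and CLB6 was lower, beside 5.37%. CLN3 was higher in A10, where 19.2% of all genes were. In A14, CLB1, CLB2 and CLB5 were higher, beside 10.3%, and CLB2 was also 2-fold higher, beside 2.98%. CLN1 and CLB2 were lower in A15, beside 5.73%. In A13 none of the 10 passed the limit. Several values lay close to it. With Agilent's processed signals CLN3 was also higher in A3 and A13, and CLB1 in A15 and CLB6 in A14 were also lower. The counts were then 12 of 70 higher, beside 16.15% of all values, and 7 of 70 lower, beside 9.02%. With arrays centred on the chromosomes whose medians were under 0.3, CLN1 and CLB6 in A3 no longer passed, which left 3 of 70 lower, beside 3.65%. The median ratio of the 10 genes was lowest in A15, at -0.21 beside -0.01 for all genes, and highest in A2, at 0.23 beside -0.01.

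No gene of the 10 passed the test of the strains as a group against WT1. By limma, 0 of 10 passed an adjusted p under 0.05 and 0 had an unadjusted p under 0.05. Of all 6126 genes, 0 passed, or 0.0%, on either scale, and 32 had an unadjusted p under 0.05. The group is 7 strains against the WT1 array alone, which the test assumes to vary like the strains. The SD of the ratios over all genes was 0.156 on WT1, and 0.271 (A13) to 0.708 (A10) on the strain arrays. WT1 thus spread less than the test assumes, so the lack of calls is not read as a lack of change. An exact permutation of such a design cannot give a p below 0.125. Against WT2 in place of WT1, limma called 331 of 6126 genes, or 5.4%, and 0 of the 10, of which 2 had an unadjusted p under 0.05. On the scale relative to the chromosome it called 694 genes against WT2, or 11.4%, and 0 of the 10. With no dye swap, the calls against WT2 can include dye effects and traits of the WT2 RNA that all arrays share. The intervals below rest on the same assumption, and under it they show how large a common change the data leave room for. The median difference between strains and WT1 was 0.16 over the 10 genes and 0.03 over all genes, and after subtraction of the chromosome medians 0.06 and 0.00. In no gene of the 10 did WT1 lie outside the range of the strains, on either scale, whereas over all genes all 7 strains lay above WT1 in 6.85% and below it in 7.29%, and after the subtraction in 7.61% and 8.13%.

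**Figure D2:**
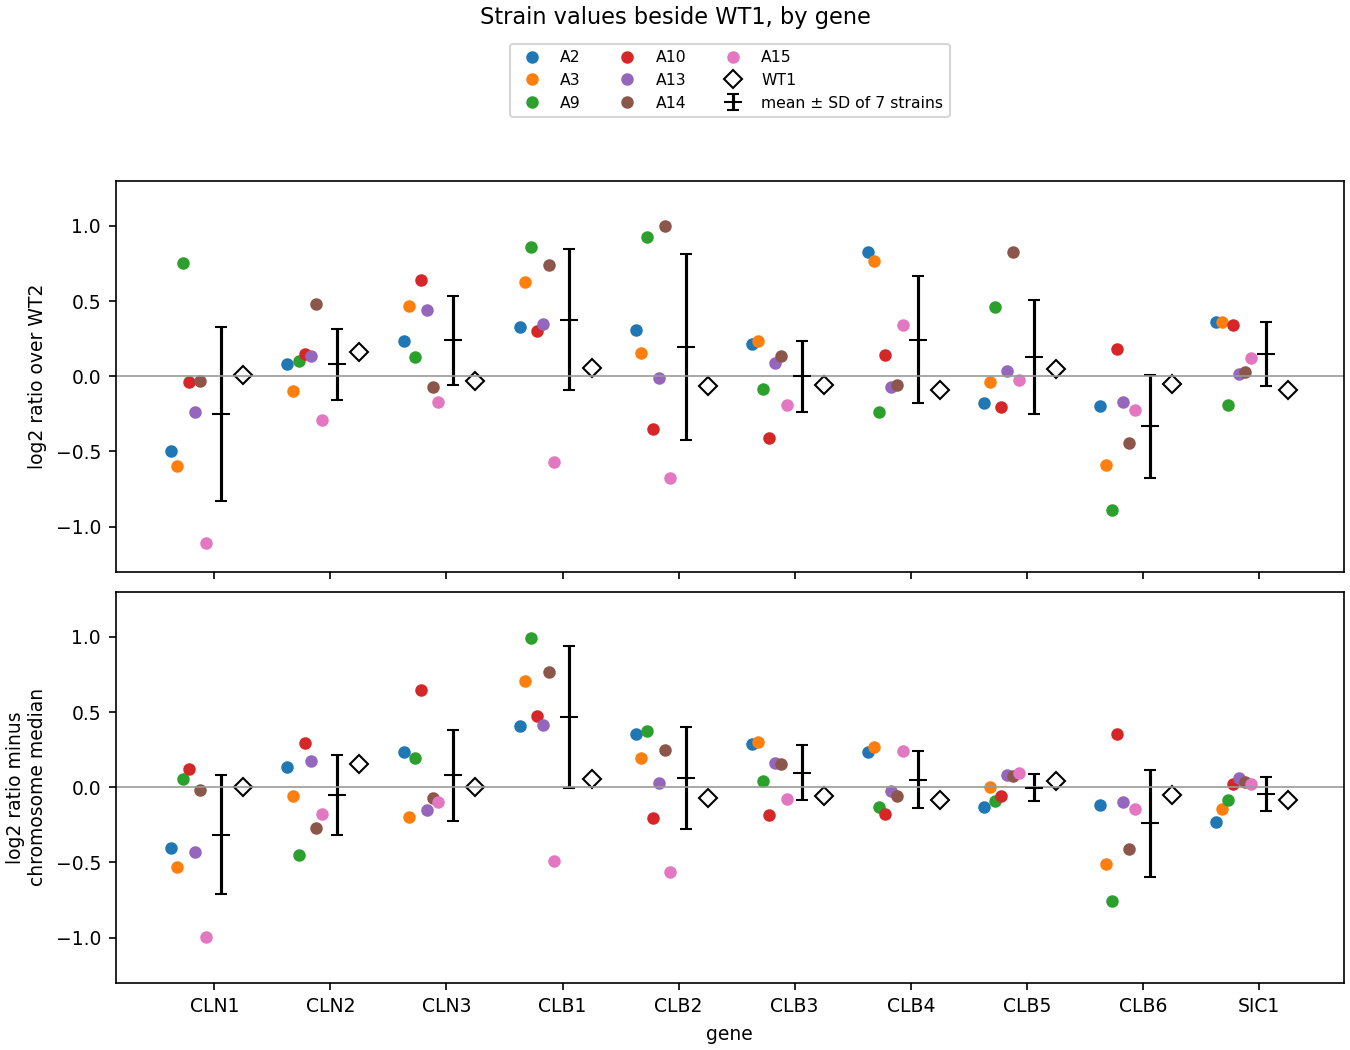
Values of each of the 7 strains (coloured points), their mean ± SD (black) and the WT1 value (open diamond) for the 10 genes, as log2 ratios over WT2 (top) and minus the chromosome median (bottom). The WT1 diamonds lie between -0.09 and 0.16 and within the range of the strains for every gene.

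Of the G1 cyclins, CLN1 varied most. CLN1 (YMR199W, chromosome XIII), whose product with Cln2 drives commitment to division, was at -1.11 in A15, -0.60 in A3, -0.49 in A2, -0.24 in A13, -0.04 in A10, -0.03 in A14 and 0.75 in A9, against 0.01 on WT1. On this scale it lay below WT1 in 6 of 7 strains, and A9 was the only strain above it. Relative to the chromosome CLN1 lay below WT1 in 5 strains and above it in 2, A9 and A10. Chromosome XIII was raised in A9, with a median of 0.70, and relative to that median CLN1 in A9 was at 0.06. The value in A15, a level of 0.464 times that of WT2, stood at -0.99 relative to its chromosome. Among the tested genes, 1.27% were at least 2-fold lower than WT2 in A15. The difference of the strains from WT1 was -0.26 (SE 0.540, n = 7 strains against 1 array; 95% interval -1.49 to 0.97, limma).

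CLN2 (YPL256C, chromosome XVI), the paralog of CLN1, had a narrower range. It lay between -0.29 in A15 and 0.48 in A14 with a median of 0.10 over the strains, against 0.16 on WT1. Chromosome XVI was raised in A14, at 0.75, and in A9, at 0.55. Relative to the chromosome, CLN2 was at -0.27 in A14 and at -0.45 in A9, its lowest value on that scale. The A9 and A13 values of CLN2 rest on 1 spot each, because the other was left out as an outlier. The difference from WT1 was -0.08 (SE 0.260, limma; 95% interval -0.67 to 0.51). CLN1 was lower than CLN2 by 0.82 in A15, where the ratios were -1.11 and -0.29, and higher by 0.65 in A9. On WT1 the ratio of CLN1 was lower than that of CLN2 by 0.15. Probe sequences were not used here, so cross-hybridisation between the paralogs was not checked.

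CLN3 (YAL040C, chromosome I), the upstream G1 cyclin, was at 0.64 in A10, 0.47 in A3, 0.44 in A13, 0.24 in A2, 0.13 in A9, -0.07 in A14 and -0.17 in A15, against -0.03 on WT1. The values of A3 and A13 go with raised chromosome I, at 0.67 and 0.59, and lay below that median by 0.20 and 0.15. A10 had the highest value although its chromosome I was not raised, at -0.01. CLN3 was a dim probe, with green signals of 77.8 to 158.5 over a background of 21 to 22.5, and with Agilent's processed signals its values were 0.51 in A2, 0.69 in A3, 0.76 in A10 and 0.62 in A13, so the sizes depend on the background correction. The difference from WT1 was 0.27 (SE 0.305, limma; 95% interval -0.42 to 0.97).

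The mitotic cyclin CLB1 showed the widest spread that was not tied to a raised chromosome. CLB1 (YGR108W, chromosome VII) was at 0.86 in A9, 0.74 in A14, 0.63 in A3, 0.35 in A13, 0.33 in A2, 0.30 in A10 and -0.57 in A15, against 0.05 on WT1. The 6 strains other than A15 thus lay above WT1, and A15 below it. Chromosome VII was raised in no strain, with medians of -0.17 to -0.03, and relative to it CLB1 was at 0.99 in A9, 0.77 in A14, 0.71 in A3 and between 0.41 and 0.47 in A2, A10 and A13. On that scale its SD over the strains, 0.474, was larger than that of 90.3% of genes. The difference from WT1 was 0.32 (SE 0.447, limma; 95% interval -0.70 to 1.34), and relative to the chromosome 0.42 (SE 0.434). At least 6 of 7 strains were above 0 in CLB1 and SIC1, or 2 of 10 genes, beside 18.6% of all genes, a share near the background. Likewise, CLN1 and CLB6 were below 0 in at least 6 of 7 strains, beside 19.6% of all genes. With the chromosome subtracted, CLB1 alone was above 0 in at least 6 of 7 strains, beside 20.0% of all genes, and CLB6 alone was below 0 in as many, beside 20.6%.

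CLB2 (YPR119W, chromosome XVI), the main mitotic cyclin, was at 1.0 in A14, 0.92 in A9, 0.31 in A2, 0.16 in A3, -0.01 in A13, -0.35 in A10 and -0.67 in A15, against -0.07 on WT1. Its highest 2 values were in the strains with raised chromosome XVI. After subtraction of the chromosome median, A14 was at 0.25, within the range of the other strains, and A9 was at 0.37, next to A2 at 0.36. A15 was lowest on both scales, at -0.56 relative to the chromosome. CLB1 and CLB2 were thus both lowest in A15, and both were highest in A9 and A14 as ratios over WT2. The difference of CLB2 from WT1 was 0.26 (SE 0.574, limma; 95% interval -1.05 to 1.57).

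CLB3 and CLB4, the pair that acts in early mitosis, varied less than CLB1 and CLB2 once chromosomes were taken into account. CLB3 (YDL155W, chromosome IV) lay between -0.41 in A10 and 0.24 in A3 with a median of 0.09, against -0.06 on WT1. CLB4 (YLR210W, chromosome XII) was at 0.83 in A2, 0.77 in A3, 0.34 in A15, 0.14 in A10, -0.06 in A14, -0.07 in A13 and -0.24 in A9, against -0.09 on WT1. Chromosome XII was raised in A2, A3 and A10, at 0.59, 0.50 and 0.32, and relative to it CLB4 was at 0.24, 0.27 and -0.18 in these strains. The SDs over the strains relative to the chromosome were 0.184 for CLB3 and 0.192 for CLB4, larger than those of 34.2% and 37.3% of genes. Differences from WT1 were 0.06 for CLB3 (SE 0.260, limma) and 0.34 for CLB4 (SE 0.406, limma; 95% interval -0.59 to 1.26).

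The S-phase cyclins differed from each other. CLB5 (YPR120C, chromosome XVI), the main cyclin of DNA replication, was at 0.83 in A14, 0.46 in A9, 0.04 in A13, -0.02 in A15, -0.04 in A3, -0.18 in A2 and -0.20 in A10, against 0.05 on WT1. Relative to its chromosome CLB5 lay between -0.13 in A2 and 0.09 in A15, against 0.04 on WT1. That SD over the strains, 0.0903, was larger than that of 4.8% of genes. The difference of CLB5 from WT1 relative to the chromosome was -0.05 (SE 0.151, limma; 95% interval -0.39 to 0.30).

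CLB6 (YGR109C, chromosome VII), its paralog, was at -0.89 in A9, -0.59 in A3, -0.44 in A14, -0.22 in A15, -0.20 in A2, -0.17 in A13 and 0.18 in A10, against -0.05 on WT1. It lay below WT1 in 6 of 7 strains and above it in A10. Its probe was dim, with green signals between 150.5 and 233.5, and with Agilent's processed signals the A9 value was -1.40 in place of -0.89, so the size of that value depends on the background correction. The difference from WT1 was -0.28 (SE 0.343, limma; 95% interval -1.06 to 0.50).

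SIC1 (YLR079W, chromosome XII), the inhibitor of Clb kinases, varied little. It was at 0.36 in A2, 0.36 in A3, 0.34 in A10, 0.12 in A15, 0.03 in A14, 0.02 in A13 and -0.19 in A9, against -0.09 on WT1. The 3 highest values were in the 3 strains with raised chromosome XII, at 1.26 to 1.28 times the level of WT2. Relative to the chromosome SIC1 lay between -0.23 in A2 and 0.06 in A13, against -0.08 on WT1, and its SD over the strains, 0.111, was larger than that of 9.27% of genes. In A2 and A3, where CLB4 lay above the median of chromosome XII by 0.24 and 0.27, SIC1 lay below it by 0.23 and 0.14. The difference from WT1 was 0.24 (SE 0.243, limma; 95% interval -0.31 to 0.79), and relative to the chromosome 0.04 (SE 0.162).

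The 10 genes lie on 6 chromosomes, of which XIII, XVI, I and XII were raised in some strain, so 15 of the 70 pairs of gene and strain fell on a raised chromosome. In 15 of these 15 the gene was above WT2, with a median of 0.47 and a range of 0.10 for CLN2 in A9 to 1.0 for CLB2 in A14. The medians of the chromosomes themselves had a median of 0.59 over these pairs. In the other 55 pairs, 24 genes were above 0 and the median was -0.04, with a range of -1.11 for CLN1 in A15 to 0.86 for CLB1 in A9. The medians of the chromosomes had a median of -0.07 over these 55 pairs, also below 0. Relative to the chromosome the 15 pairs had a median of -0.09, between -0.45 and 0.37, and the other 55 a median of 0.02, between -0.99 and 0.99. Whether a chromosome was raised was read from the same arrays, so these values are a description with no test. By that definition most genes of a raised chromosome lie above WT2, and the share over all such genes was not computed. Several pairs also share a strain and a chromosome, such as XVI in A9 and in A14, and are not separate events.

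**Figure D3:**
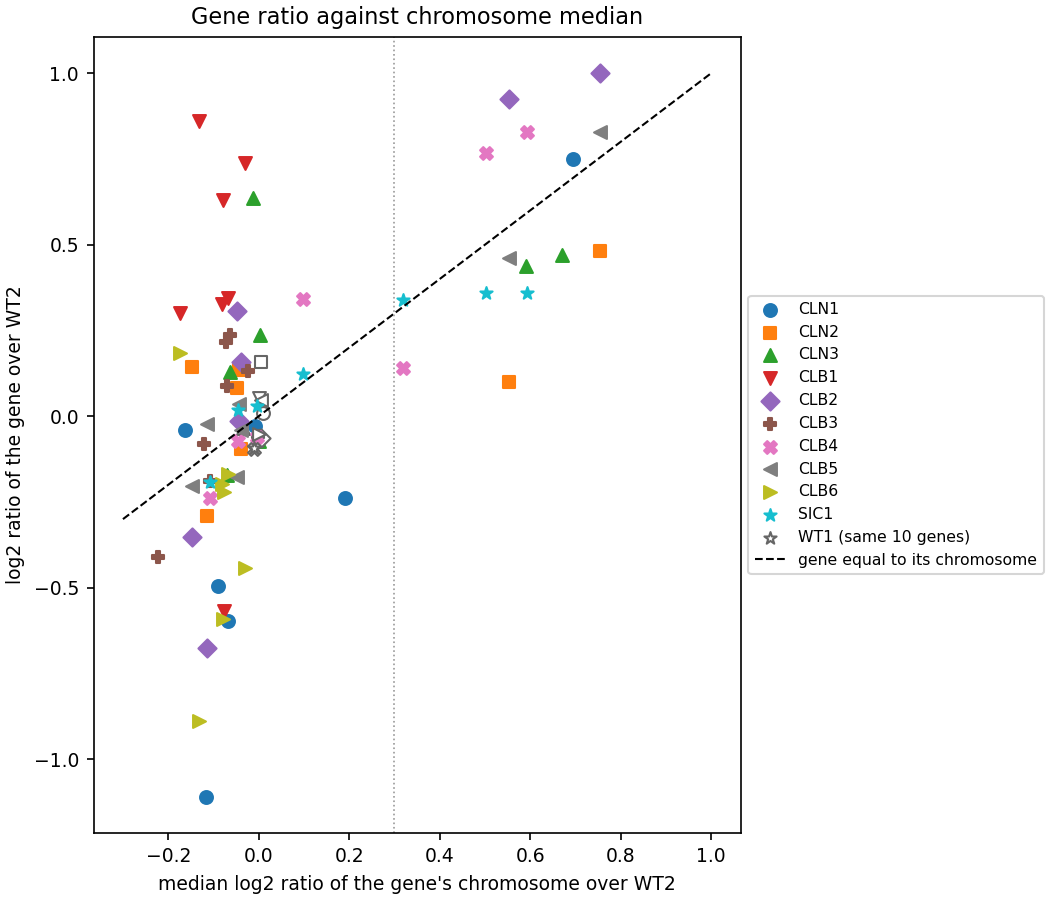
Log2 ratio of each gene over WT2 (vertical axis) against the median log2 ratio of its chromosome on the same array (horizontal axis), with the 7 strains filled and WT1 open. All 15 points right of the dotted line at 0.3 are above 0, as most genes of a chromosome with such a median must be. Points left of it spread from -1.11 to 0.86.

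In the gene table of assembly R64, CLB1 and CLB6 are neighbours on chromosome VII, and CLB2 and CLB5 are neighbours on chromosome XVI. Each pair joins a mitotic and an S-phase cyclin. Neighbours share the copy number of their chromosome unless only part of it is changed. The difference of their log2 ratios over WT2, given below, leaves that copy number out and does not compare their transcript levels. CLB1 exceeded CLB6 by 1.75 in A9, 1.22 in A3, 1.18 in A14, 0.53 in A2, 0.51 in A13 and 0.12 in A10, and in A15 the difference was -0.35, against 0.11 on WT1. CLB2 exceeded CLB5 by 0.49 in A2, 0.46 in A9, 0.20 in A3 and 0.17 in A14, and the difference was -0.05 in A13, -0.15 in A10 and -0.65 in A15, against -0.11 on WT1. In A15 the ratios of both mitotic cyclins were thus below that of the neighbouring S-phase cyclin, and in A2, A3, A9 and A14 both were above it. The CLB6 probe was dim, so the sizes of the differences between CLB1 and CLB6 depend on the background correction.

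**Figure D4:**
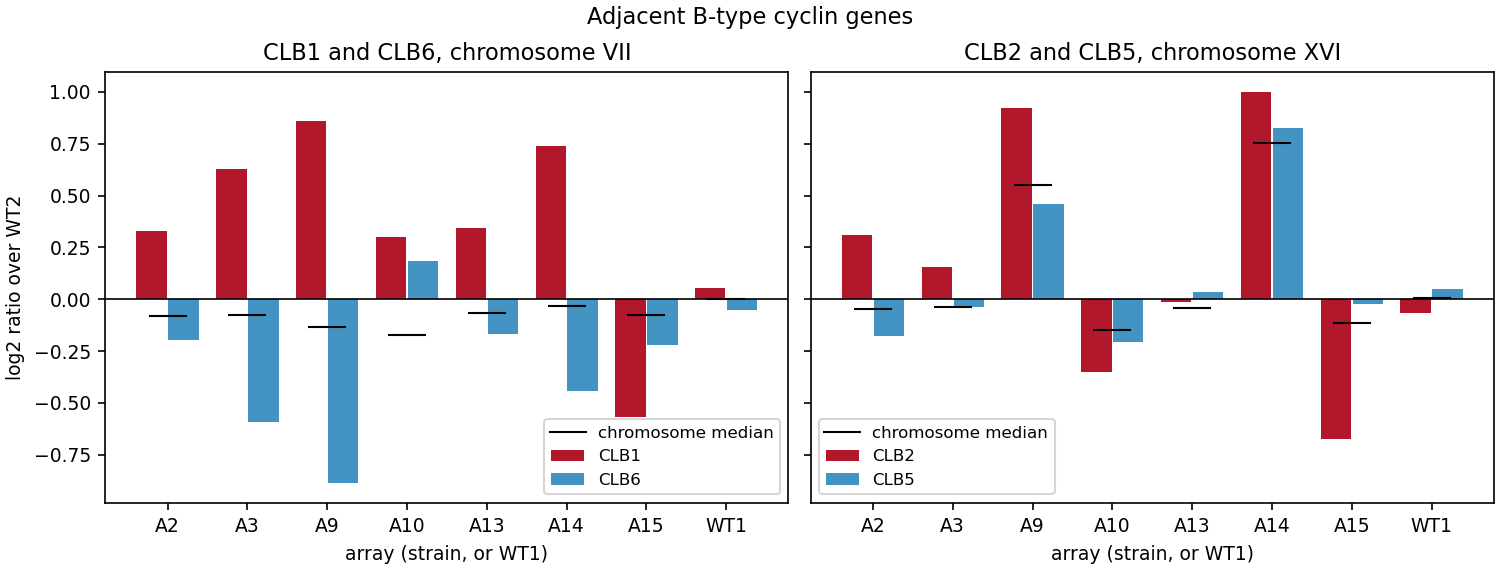
Log2 ratios over WT2 of the adjacent genes CLB1 and CLB6 (left) and CLB2 and CLB5 (right) on the 8 arrays, with a dash at the chromosome median. The bars of CLB1 and CLB6 point in opposite directions in A2, A3, A9, A13 and A14, whereas those of CLB2 and CLB5 are both above 0 in A9 and A14, where chromosome XVI was raised.

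Other genes of the cell cycle were read from 6 lists, and limma called 0 genes higher and 0 lower in each. In the mean of the strains, 56.15% of all tested genes were above WT1, the share beside which the list counts below stand. With lists this small, nothing is read from these counts. The kinase partner of all the cyclins, CDC28 on chromosome II, was at 0.69 in A9, 0.71 in A2, 0.68 in A3, 0.44 in A15, 0.20 in A13, 0.11 in A14 and -0.37 in A10, against -0.23 on WT1. It lay below WT1 in A10 and above it in the other strains. The chromosome II medians were 0.64 in A9, 0.66 in A2, 0.73 in A3, 0.49 in A15, 0.27 in A13, -0.02 in A14 and -0.14 in A10. Among the 10 genes of Cdc28, its regulators and its inhibitors, 6 were above WT1 in the mean of the strains and 4 below. FAR1, the inhibitor of Cln kinase in the pheromone response, was at 0.48 in A14, -0.21 in A13, -0.75 in A2, -0.87 in A3, -0.94 in A15, -1.08 in A9 and -4.54 in A10, against 0.19 on WT1. Its chromosome X was raised in A15, at 0.46, and relative to it FAR1 was at -1.40 there. CDC37, a chaperone partner of protein kinases, differed from WT1 by -0.35 (SE 0.237, limma).

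The 12 genes of G1/S transcription and its control had 7 above and 5 below WT1, with a median difference of 0.07 beside 0.03 for all genes. MSA1, an activator of G1/S genes, was at -0.78 in A15 and between -0.32 and 0.40 in the other strains, against 0.15 on WT1. The value of 0.40 was in A10, where its chromosome XV was raised, at 0.58. Relative to that chromosome MSA1 was at -0.18 in A10 and -0.64 in A15. MBP1, the DNA-binding subunit of the factor MBF, differed from WT1 by -0.23 (SE 0.196, limma). Of the 20 G1/S targets other than the members, 8 were above and 12 below, with a median difference of -0.03. PCL2, a G1 cyclin of the kinase Pho85, was at -0.67 in A15 and at -0.24 to 0.08 in the other strains, against 0.13 on WT1. The list was mixed in A15. Relative to their chromosomes, 8 of the 20 genes were above 0 there and 12 below, with a median of -0.11. POL2, a DNA polymerase subunit, differed from WT1 by -0.26 (SE 0.212, limma).

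The 15 genes of G2/M transcription and its targets, a mix of regulators and targets, had 8 above and 7 below WT1. Relative to their chromosomes their median was 0.02 in A15, where CLB1 and CLB2 were at -0.49 and -0.56, and 0.01 in A9 and 0.08 in A14, where CLB1 was at 0.99 and 0.77. On WT1 the list median was 0.09. The median of this mixed list thus did not show the size of the CLB1 values. ALK1, a mitotic protein kinase, differed from WT1 by -0.37 (SE 0.194, limma), and MYO1, the myosin of the cytokinetic ring, by -0.24 (SE 0.199, limma), with no value of MYO1 in A13.

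Of the 19 genes of the ubiquitin ligases that destroy cyclins and Sic1, 6 were above and 13 below WT1, with a median difference of -0.04. CDC27, a subunit of the anaphase-promoting complex on chromosome II, was at 0.93 in A9, 0.84 in A2, 0.86 in A3, 0.53 in A15, 0.44 in A13, -0.23 in A14 and -0.53 in A10, against -0.07 on WT1. It lay above WT1 in 5 strains and below it in A14 and A10. Relative to chromosome II, CDC27 was at 0.28 in A9, 0.18 in A2, 0.14 in A3, 0.03 in A15 and 0.16 in A13. On that scale it was at -0.21 in A14 and -0.39 in A10, against -0.07 on WT1. APC4 differed from WT1 by 0.19 (SE 0.163, limma). Of the 15 genes of Pho85 and other cyclins, 6 were above and 9 below. PCL5, the Pho85 cyclin that acts on Gcn4, was at -1.74 in A10 and between -0.61 and 0.45 in the other strains, against -0.41 on WT1, and CLG1 differed from WT1 by 0.32 (SE 0.262, limma).

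Genes with the most similar pattern were sought for CLN1, CLB1 and CLB6, whose values relative to the chromosome spanned more than 1 over the 8 arrays. Likeness was the root-mean-square difference from the cyclin over these 8 arrays, among 6045 genes, and is a description, since all ratios share WT2. Nearest to CLN1 were SDC25, a Ras activator, at 0.113, WWM1 at 0.147 and the linker histone gene HHO1 at 0.181. CLN1 itself lay 0.452 from 0 by the same measure. In A15 these 3 genes were at -0.75, -0.83 and -0.67, beside -0.99 for CLN1. A15 was among the arrays on which they were picked, so their low values there are no separate support. Nearest to CLB1 were PPH22, a catalytic subunit of protein phosphatase 2A, at 0.196, SCW10, a cell wall protein, at 0.197 and GID8, of a ubiquitin ligase, at 0.239. CLB1 lay 0.60 from 0. Its A15 value of -0.49 was lower than those of the 3 genes, at -0.20, -0.07 and -0.20. Nearest to CLB6 were MOG1, of nuclear protein import, at 0.104, VTC5, of polyphosphate synthesis, at 0.139 and the open reading frame YBL070C at 0.142, and CLB6 lay 0.383 from 0.

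**Figure D5:**
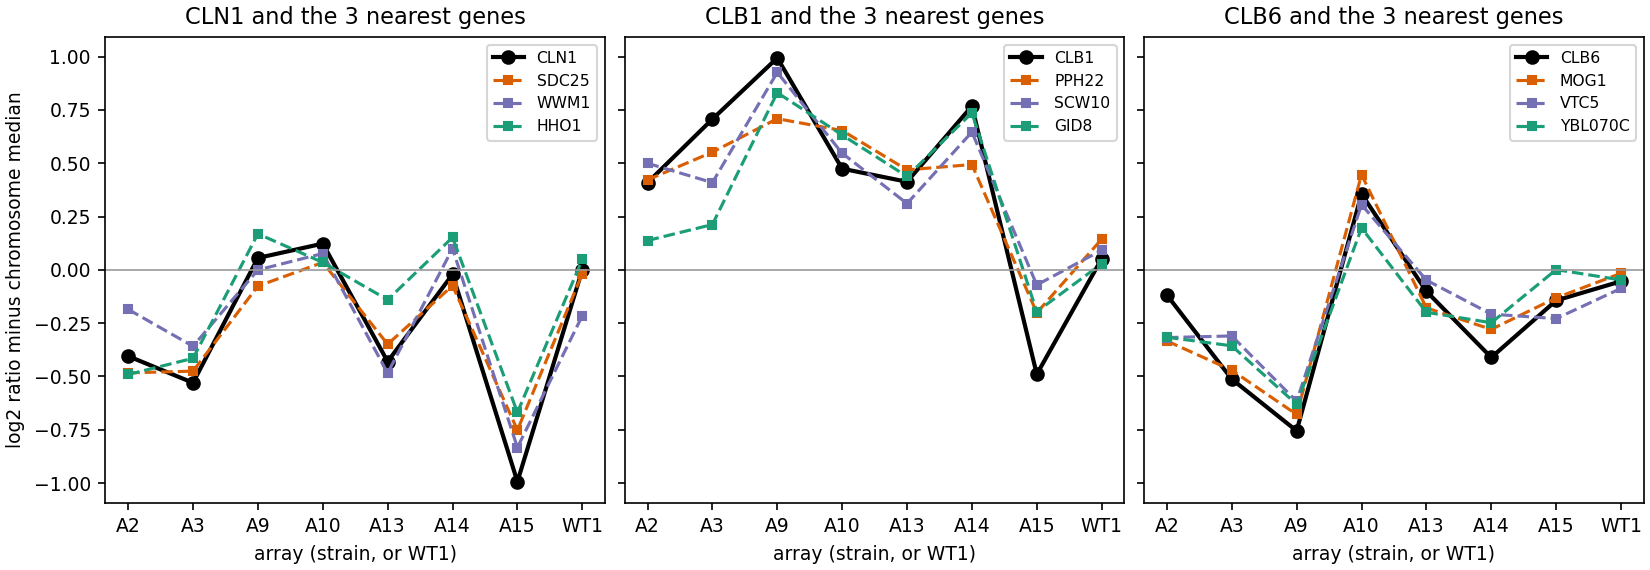
Log2 ratio minus the chromosome median on the 8 arrays for CLN1, CLB1 and CLB6 (black) and the 3 genes with the smallest root-mean-square difference from each (dashed), where lines only guide the eye. The nearest genes were picked on these same arrays. In A15 those of CLN1 lie between -0.83 and -0.67, and those of CLB1 do not reach its -0.49.

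Markers of mating type and stress differed between the strains in which cyclin values stood out. Relative to their chromosomes, the median of 7 a-specific genes was -4.29 in A9, -4.35 in A10, -1.77 in A15, -0.99 in A2, -0.98 in A3, -0.18 in A13 and 0.08 in A14, against 0.07 on WT1. Of these, 7 of 7 were below 0 in A2, A3, A9, A10 and A15. The 5 alpha-specific genes had a median of 4.77 in A9, with 5 of 5 above 0, and medians between -0.18 and 0.36 in the other strains, against 0.00 on WT1. The 8 haploid-specific genes, FAR1 among them, were below 0 in 8 of 8 cases in A9, A10 and A15, with medians of -0.67, -3.07 and -0.62, against 0.11 on WT1. The 15 general stress genes had medians of 2.05 in A10, 1.33 in A9, 0.84 in A13, 0.42 in A14, -0.44 in A3, -0.47 in A15 and -0.48 in A2, against 0.05 on WT1. In A9, A10 and A14, 15 of 15 stress genes were above 0. CLB1 was highest in A9, CLN3 and CLB6 in A10, and CLN1, CLB1 and CLB2 lowest in A15, and the part of these markers in those values was not tested.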

How the data were processed

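Per the file headers, Agilent Feature Extraction 10.5.1.1 measured the spots. The deposited files give median spot and background intensity per channel without normalization, and processed signal intensity after background subtraction and dye normalization. Per the file headers, they also give log10 ratios of red over green. These matched the authors' deposited table of log2 ratios within 5e-04. No dyes were swapped.

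Median intensities were corrected with normexp (offset 50) and normalized by loess within arrays in limma 3.58.1 (R 4.3.3), with weight 0 for 536 control spots. Outlier spots were left out and duplicate spots averaged. A gene was tested where 2 or more arrays had it well above background in red or green. This left 6126 genes, of which 53 lacked a value on some array. The array design follows an older build than assembly R64, which gave names and neighbours only. The limma test (lmFit, eBayes) was two-sided with Benjamini-Hochberg adjustment over all genes, and was run on simulated data. The simulation gave WT1 the spread of the strains and shifted no chromosomes, so it could not check the assumption about WT1. Duplicate spots measure the same labelled RNA and give no error between cultures, so the number of arrays limits precision.

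The members, lists and tests were chosen with earlier results of these data known. Named list genes were those at least 2-fold from WT2 relative to their chromosome in a strain, up to 6 by size, and the 2 of smallest p. Every marker gene could be named. Likeness was computed for members that spanned over 1, with the 3 nearest genes named. One further list of cell-cycle genes is not reported here.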

Additional observations from a re-analysis of the deposited data

Results flagged for a closer look

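The strain A15 stood apart from the other 6 strains in CLB1, on both scales. CLB1 was at -0.57 in A15 as a log2 ratio over WT2, and the gap to the next strain was 0.608 of the whole range, above the critical value of 0.568 for 7 samples. Relative to the chromosome CLB1 was at -0.49 in A15, with a gap of 0.606 of the range. These were 2 flags among 20 sets of values tested, of which chance flags about 1, and both concern the same spots. Each strain was measured on 1 array, and the cause of the A15 value was not tested.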

How the results depend on the processing

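Under Agilent's processed signals, the deposited table, no filter on dim genes, centring on chromosomes under 0.3, the slide row that holds WT1, each strain left out in turn (between 0 and 0 genes called), and without A9 and A10, an alternative chosen after seeing the data, limma called 0 genes and 0 of the 10 members on both scales. Against WT2, a test without any wild-type spread, it called 331 genes, and 694 relative to the chromosome, and 0 members on both. Adjusted p-values of members were at least 0.999 against WT1 under every setting, and at least 0.080 against WT2 (limma). All settings against WT1 share the assumption that WT1 varies like the strains, so their common result does not check it.

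Small differences changed sign in some settings. Against WT2, CLN2 was at 0.0793 and CLB3 at -0.0008, and SIC1 relative to its chromosome at -0.0460. Relative to the chromosome and within the slide row of WT1, CLN3 was at -0.11, CLB2 at -0.0233 and CLB5 at 0.0409. Without A9 and A10, CLN3 relative to its chromosome was at -0.0602. With each strain left out in turn, CLB5 ranged between -0.0388 (without A14) and 0.13, and CLN3 relative to the chromosome between -0.0181 (without A10) and 0.12. None of these was called in any setting. The pairs of gene and strain at least 1.5-fold lower than WT2 numbered 3 with arrays centred on chromosomes under 0.3 and 7 with Agilent's processed signals, against 5, a comparison added after seeing the data. Of single values, CLB6 in A9 moved to -1.40 with Agilent's processed signals. No paired analysis was possible because the WT1 group is 1 array and the labels give no replicate numbers. Dim probes, CLN3 and CLB6 and to a lesser degree CLN2, limit how well the size of their ratios is known.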
